A study of Mus musculus with 8 samples.

Results

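The genes described here encode the nuclear subunits of respiratory chain complexes I, III and IV. They were chosen by name, as the rows whose symbol begins with Nduf, Uqcr or Cox and goes on as a numbered or lettered subunit, and 61 of the 34478 genes listed met this rule. Complex I accounted for 37 of them, complex III for 8 and complex IV for 16. Ndufa4 was counted under complex I by its name and is known today as a component of complex IV.

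The respiratory chain moves electrons from NADH to oxygen and pumps protons across the inner mitochondrial membrane. Complex I takes electrons from NADH, complex III passes them from ubiquinol to cytochrome c, and complex IV hands them to oxygen. A few catalytic subunits are encoded by mitochondrial DNA, while the others come from nuclear genes whose transcription is commonly linked to the factors NRF1, GABP and YY1.

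The study profiled by RNA-seq 4 primary lines of murine pancreatic ductal adenocarcinoma (PDAC), numbered #1, #3, #5 and #10. All came from tumors of a genetically engineered mouse model whose alleles include Ptf1awt/Cre and Trp53loxP/loxP. Cre expressed from the Ptf1a locus, active in the pancreas, deletes Trp53, so that control and treated cells alike carry this change. Each line was treated with the MEK inhibitor trametinib (MEKi) for 48 h at the IC50 of that line, or with DMSO as control, and each line gave 1 library per treatment, 8 in all. Equal effect rather than equal dose thus defined the treatment, and p-values measure the spread between these 4 lines.

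Library totals ran from 30680091 to 36385719 normalized counts, and 1 read was worth an estimated 0.775 to 1.24 normalized counts. The 6 MEK output genes Dusp6, Spry2, Spry4, Etv4, Etv5 and Phlda1 were lower with trametinib in all 4 lines, with log2 fold changes from -5.92 to -1.45. Of the epithelial markers, 5 of 6 tested were lower (Krt8, Krt18, Krt19, Krt7 and Muc1) and Cdh1 had a log2 fold change of -0.02, while Epcam was listed at 0 in lines #1, #5 and #10. The epithelial markers summed to 231000 to 352000 normalized counts with DMSO and to 119000 to 231000 with trametinib. Of 4 tested fibroblast markers, Col1a1 was higher (log2 fold change 3.60) and the list summed to 83.5 to 351 with DMSO and to 417 to 1240 with trametinib, with Lum at 0 in every library. Col1a1 alone stood at 360, 1103, 930 and 1110 with trametinib in lines #1, #3, #5 and #10, most of each sum. Col3a1, Dcn and Pdgfra were not called, with adjusted p of 0.64, 0.99 and 0.91 in limma. Leukocyte markers summed to at most 24.9 in any library. Of 3 tested endothelial markers Tek was higher, with a list sum of 30.9 to 54.6 with DMSO and 62.7 to 831 with trametinib. The sum of 831 was that of line #3, where Tek alone stood at 805. In such bulk samples, fewer cells of a type and less RNA per cell cannot be told apart, and the part of these markers in the results below was not tested.

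With trametinib, 27 of the 56 members that passed the filter on low counts were lower and 1 was higher. Lower members numbered 15 of 37 in complex I, 6 of 8 in complex III and 6 of 11 in complex IV. Across all 15888 genes tested, 25.6% were lower and 27.3% were higher. The lower members were thus 48.2% of those tested, a share that was 16.1% to 21.4% with equal totals, without the block for the line, without line #5 or with a length and GC correction, against 14.8% to 26.0% of all genes under those settings. Calls rest on limma with a block for the line and a Benjamini-Hochberg adjusted p under 0.05. The test ran on log2(normalized count + 1), a scale that understates the change of low genes. The median log2 fold change was -0.21 ± 0.15 for complex I, -0.35 ± 0.14 for complex III and -0.23 ± 0.07 for complex IV (SD of the line medians, n = 4 lines), against 0.07 for all genes tested. No member of complexes I and III was called higher, nor did any at an unadjusted p under 0.05 in limma, at which 17 and 7 members were lower.

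Of the 56 members, 40 (71.4%) were lower in all 4 lines, against 30.9% of all genes tested, and all 27 members called lower were among them. In 14 members every trametinib library lay below every DMSO library, 7 of them in complex I, 5 in complex III and 2 in complex IV. Among all genes tested, 16.2% showed this order. Line #3 had the lowest of the 4 changes in 35 members and line #1 the highest in 45 members. Among all 15888 genes tested, line #3 had the lowest change in 5960 and the highest in 4709, and line #1 the highest in 4159. The median change of complex I was -0.05 in line #1, -0.43 in line #3, -0.24 in line #5 and -0.23 in line #10. For complex III it was -0.22, -0.56, -0.38 and -0.30 in the same order of lines. Complex IV had medians of -0.10, -0.21, -0.25 and -0.23. The 61 members summed to 136175, 145126, 142096 and 146135 normalized counts with DMSO and to 125448, 112712, 115000 and 124121 with trametinib. The library totals were also lower with trametinib in each line. As a share of the library these genes held 0.382%, 0.435%, 0.391% and 0.421% with DMSO in lines #1, #3, #5 and #10. With trametinib they held 0.379%, 0.367%, 0.351% and 0.392%, so that the share in line #1 hardly changed.

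**Figure D1:**
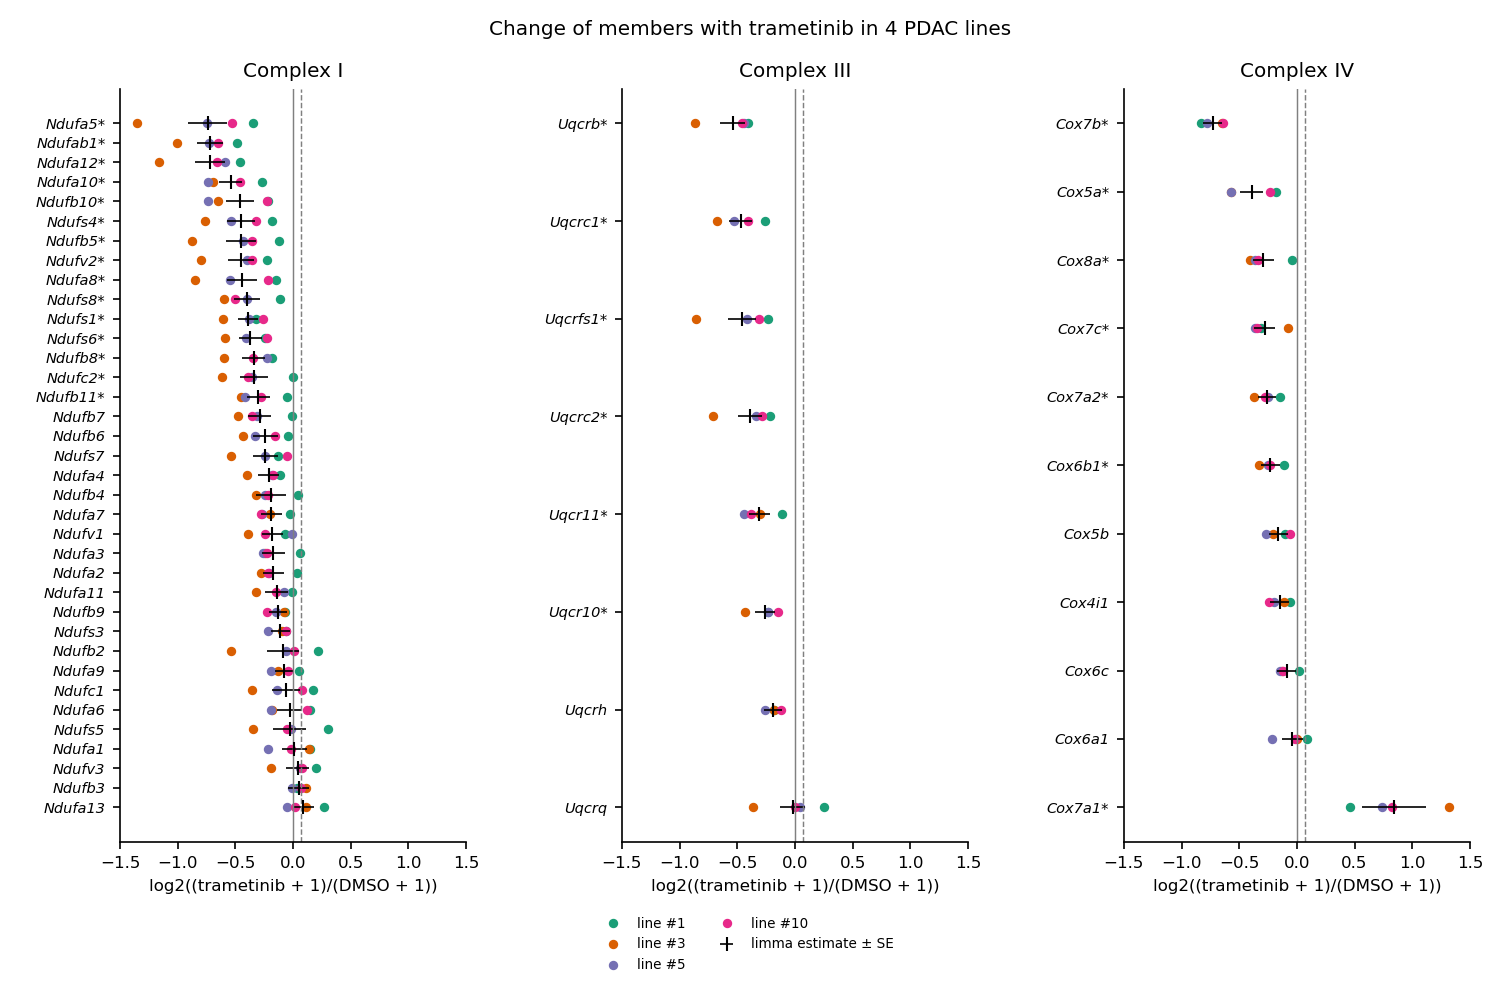
Change of the tested members reported here, as log2((trametinib + 1)/(DMSO + 1)) on the horizontal axis, with 1 point per cell line and the limma estimate with its standard error as a black mark. An asterisk marks an adjusted p under 0.05, the solid line 0 and the dashed line the median of all genes tested. Most points lie left of 0, those of line #3 often farthest, and Cox7a1 alone lies well to the right.

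In complex I the deepest falls were in accessory subunits, the proteins that surround the catalytic core. Ndufab1, the mitochondrial acyl carrier protein, lies at chr7:122085403-122101886 of GRCm38. Its DMSO libraries held 2548, 2368, 2910 and 2324 normalized counts, in the order of lines #1, #3, #5 and #10 used throughout, and its trametinib libraries 1808, 1178, 1751 and 1485. All 4 trametinib libraries lay below all 4 DMSO libraries, and line #3 fell most. Its log2 fold change was -0.72 (SE 0.11, adjusted p = 0.0018, limma), and it fell by 39.3%. Ndufa5, a subunit of the arm that reaches into the matrix (chr6:24518666-24528013), stood at 976, 1058, 1211 and 935 with DMSO and at 768, 414, 722 and 649 with trametinib. Again the groups did not overlap, and the change of -1.35 in line #3 compared with -0.35 in line #1. The estimate was -0.74 (SE 0.17, adjusted p = 0.011, limma).

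Ndufa12, another accessory subunit (chr10:94198720-94221443), had a log2 fold change of -0.72 (SE 0.13, adjusted p = 0.0045, limma). Its values of 1717, 744, 1781 and 1481 with DMSO fell to 1247, 332, 1183 and 936, and the groups overlapped because line #3 was low under both treatments. Gm15920, a processed pseudogene, matches 402 bases of the transcript at 99.5% identity. In line #3 this pseudogene was listed at 823 and 379 without and with trametinib, and it was at no more than 4.92 in every library of the other lines. With both summed, Ndufa12 stood at 1722, 1567, 1783 and 1482 with DMSO and at 1249, 710.9, 1188 and 935.7 with trametinib, and the log2 fold change was -0.71 (adjusted p = 0.004, limma). The groups of the sum did not overlap. Ndufa10, an accessory subunit related to nucleoside kinases and named here after its values were seen, fell from 3316, 3896, 3676 and 4013 to 2741, 2413, 2207 and 2909, with a log2 fold change of -0.54 (SE 0.10, adjusted p = 0.005, limma).

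The 7 nuclear core subunits of complex I carry its flavin and iron-sulfur clusters or form the site where ubiquinone binds, and 3 of them were lower. Ndufv2, an iron-sulfur protein next to the flavin, stood at 2092, 2506, 1976 and 2413 with DMSO and at 1778, 1440, 1493 and 1884 with trametinib, without overlap. Its log2 fold change was -0.45 (SE 0.11, adjusted p = 0.015, limma). Ndufs1, the largest subunit and the carrier of several iron-sulfur clusters, fell by 0.39 on the log2 scale (SE 0.09, adjusted p = 0.01) from values of 3805 to 4844 to values of 3047 to 3825, which overlapped by a narrow margin. Ndufs8, which holds clusters near the ubiquinone site, had a log2 fold change of -0.40 (SE 0.11, adjusted p = 0.017). Ndufv1, Ndufs7 and Ndufs3 did not pass the test. For Ndufv1, which binds NADH and the flavin, the estimate was -0.18 (adjusted p = 0.15, limma). Ndufs7, the bearer of the last cluster before ubiquinone, had -0.24 (adjusted p = 0.11). Ndufs3, part of the module that leads to ubiquinone, held 1671, 2013, 1748 and 2430 normalized counts in the DMSO libraries and 1603, 1878, 1502 and 2328 in the trametinib libraries. It was slightly lower in each line, the groups overlapped broadly, and the estimate of -0.11 (adjusted p = 0.29, limma) did not pass.

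The further complex I members called lower were Ndufb10, Ndufs4, Ndufb5, Ndufa8, Ndufs6, Ndufb8, Ndufc2 and Ndufb11, with log2 fold changes from -0.46 to -0.30. Ndufs4, an accessory subunit whose loss in mice is used as a model of Leigh syndrome, stood at 1187, 1449, 1324 and 1136 with DMSO and at 1050, 856, 908 and 910 with trametinib (SE 0.12, adjusted p = 0.019). Ndufb10, of the membrane arm, fell from 1688, 1999, 2151 and 1953 to 1453, 1278, 1286 and 1671, most in lines #3 and #5. In both genes, and in Ndufs6 at 1231 to 1473 against 836 to 1108, the trametinib libraries lay below all DMSO libraries. In Ndufa8 the groups overlapped through line #10, at 2038 with trametinib against a lowest DMSO value of 1799, and in Ndufb5 through line #1, at 1721 against 1693. Line #3 changed by -0.85 in Ndufa8 and by -0.88 in Ndufb5, and line #1 by -0.15 and -0.12.

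Among the 22 members of complex I that did not pass, estimates ran from -0.29 for Ndufb7 (adjusted p = 0.053) to 0.09 for Ndufa13 (adjusted p = 0.43). Ndufa4 stood at 4989, 5524, 5355 and 4490 with DMSO and at 4612, 4178, 4738 and 4004 with trametinib. It was lower in all 4 lines, but the groups overlapped and the estimate of -0.21 (SE 0.09, adjusted p = 0.073, limma) did not pass.

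Complex III had the largest share of lower members. Uqcrc1, one of its core proteins (chr9:108936633-108949623), was even between lines with DMSO, at 5500, 5844, 5761 and 5564 normalized counts, and stood at 4607, 3636, 3988 and 4194 with trametinib. The groups lay well apart, and the log2 fold change was -0.47 (SE 0.10, adjusted p = 0.0064, limma). Uqcrb, a small subunit that contacts cytochrome b (chr13:66900617-66905378), fell from 1874, 1730, 1787 and 1505 to 1415, 949, 1320 and 1098, with an estimate of -0.54 (SE 0.11, adjusted p = 0.0062). Its changes of -0.41, -0.44 and -0.46 in lines #1, #5 and #10 were close together, with line #3 apart at -0.87. With the correction for transcript length and GC content described below, Uqcrb stood at -0.18 (adjusted p = 0.15) and was not called. Uqcrfs1, the Rieske iron-sulfur protein that hands electrons to cytochrome c1, fell from 2826, 2462, 2987 and 2710 to 2412, 1357, 2226 and 2183, without overlap (log2 fold change -0.46, SE 0.12, adjusted p = 0.018).

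Uqcrc2, the other core protein, went from 4321, 4038, 4470 and 3915 to 3722, 2468, 3536 and 3205 without overlap between the groups. Uqcrc2 and the small subunits Uqcr11 and Uqcr10 were also lower, by 0.39, 0.31 and 0.26 on the log2 scale. Uqcrh, the hinge protein near cytochrome c1, stood at 2854 to 3058 with DMSO and at 2483 to 2692 with trametinib. The groups did not overlap, yet the log2 fold change of -0.19 (SE 0.08) had an adjusted p of 0.083 in limma. Uqcrq, a small subunit bound to cytochrome b, had an estimate of -0.02 (adjusted p = 0.91), with changes of 0.25 in line #1 and -0.36 in line #3. Cyc1 encodes cytochrome c1, the remaining nuclear catalytic subunit of complex III, whose name the rule did not take. It fell from 4479, 4643, 6238 and 4869 to 3028, 1923, 3478 and 3044, a log2 fold change of -0.84 (SE 0.13, adjusted p = 0.002), below that of any of the 8 members. Cycs, which encodes the mobile carrier cytochrome c between complexes III and IV, had -0.95 (SE 0.12, adjusted p = 0.0012).

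In complex IV the deepest fall was in Cox7b, a small membrane subunit on the X chromosome (chrX:106015700-106022450). It held 4255, 3296, 3444 and 2625 normalized counts in the DMSO libraries and 2386, 2094, 2002 and 1679 after trametinib. No trametinib library reached the lowest DMSO library, and the changes of the lines were -0.83, -0.65, -0.78 and -0.64. The log2 fold change was -0.73 (SE 0.08, adjusted p = 0.00079, limma), and Cox7b fell by 39.7%. Cox5a, which sits on the matrix side of the enzyme, fell from 3867, 3060, 3993 and 2991 to 3402, 2057, 2693 and 2549 (log2 fold change -0.39, SE 0.10, adjusted p = 0.018), with overlap between the groups. Cox8a, Cox7c, Cox7a2 and Cox6b1, all small subunits around the catalytic core, fell by 0.29, 0.28, 0.26 and 0.23. Cox7c moved least in line #3, at -0.08 against -0.36 to -0.31 in the other lines, unlike Cox8a, which moved least in line #1 at -0.04. Of the remaining subunits of complex IV, Cox5b was at -0.16 (adjusted p = 0.15) and Cox6c at -0.09 (adjusted p = 0.35).

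**Figure D2:**
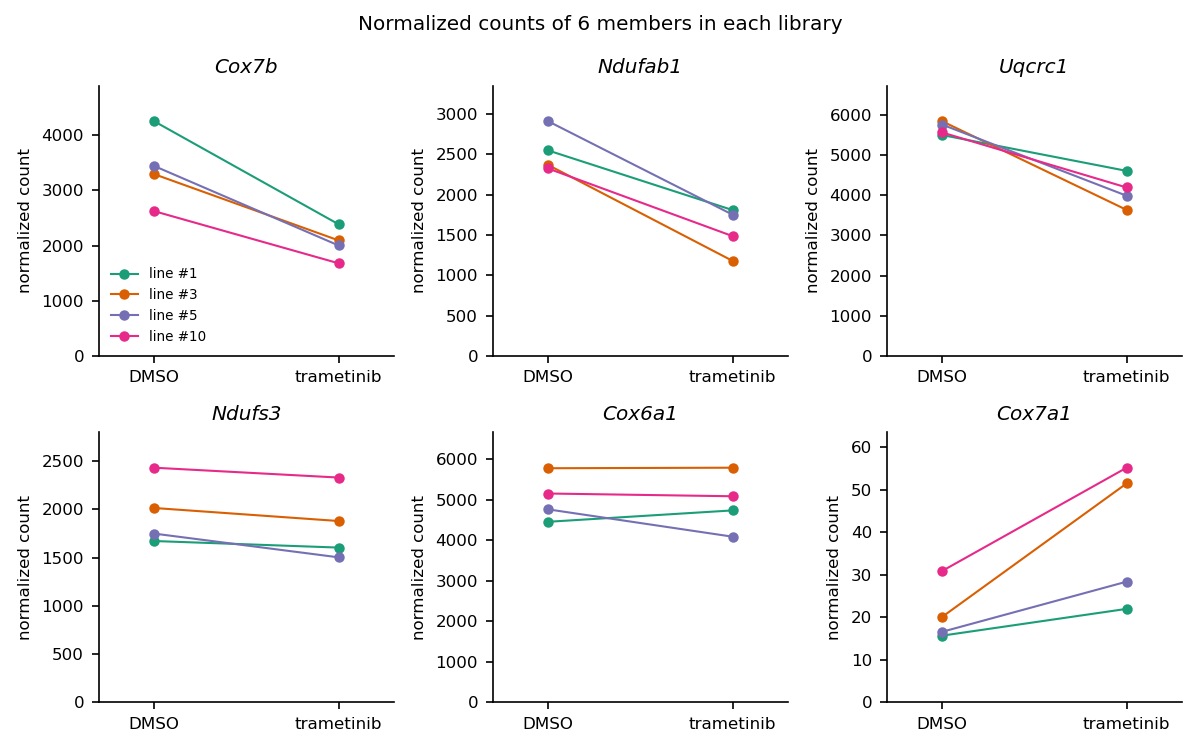
Normalized counts (vertical axis, from 0) of 6 members with DMSO and with trametinib, with a line joining the libraries of each cell line. Cox7b, Ndufab1 and Uqcrc1 were lower in each line, from 4255 to 2386 for Cox7b in line #1, while Ndufs3 (log2 fold change -0.11) and Cox6a1 (-0.04) did not pass the test and the low Cox7a1 was higher in each line.

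Several subunits of complex IV exist as alternate forms with a known tissue bias, and these forms were scarce here. Cox4i2 (lung), Cox6a2 (heart and skeletal muscle), Cox7b2 and Cox8c (testis) were listed at 0 in 7 of 8 libraries each, and Cox6b2 (testis) at 0.0 to 20.1. These 5 genes were below the filter and were not tested, and Cox8b was not analysed here. Cox7a1, the form of heart and skeletal muscle (chr7:30184144-30186078), passed the filter at a mean of 20.8 ± 6.99 with DMSO and 39.3 ± 16.5 with trametinib (SD, n = 4). It stood at 15.7, 20.1, 16.6 and 30.9 with DMSO and at 22.0, 51.5, 28.4 and 55.2 with trametinib. It was higher in 4 of 4 lines, although the groups overlapped, with a log2 fold change of 0.84 (SE 0.28, adjusted p = 0.042, limma). This call passed in 6 of 14 alternative settings, with adjusted p from 0.015 to 0.22.

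Of the 4 striated muscle markers tested, Tnnt2 was lower, and the muscle creatine kinase gene Ckm stood at 6.17 to 9.30 with DMSO and 13.4 to 18.6 with trametinib (adjusted p = 0.06). The muscle list summed to 893 to 2970 with DMSO and 558 to 1350 with trametinib, most of it Tnnt2, and Myh6 was not analysed here. Its part in the values of Cox7a1 was not tested. The common partner of Cox7a1, Cox7a2, stood at 2514 to 2772 with DMSO and 2064 to 2291 with trametinib (log2 fold change -0.26, SE 0.08, adjusted p = 0.033). Of the other common forms, Cox4i1 had -0.15 (adjusted p = 0.15) and Cox6a1 -0.04 (adjusted p = 0.74). Per kilobase of transcript, Cox7a1 stood at 52.9 normalized counts per kb with DMSO and Cox7a2 at 4000.

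Levels per kilobase differed widely between subunits that are assembled into the same enzymes. Cox4i1 was highest, at 12300 normalized counts per kb with DMSO, followed by Ndufa4 at 11300, Cox8a at 9450 and Cox6a1 at 8830. Among the members tested other than Cox7a1, Ndufb4 was lowest at 369 and Ndufs4, an accessory subunit of the NADH module, second lowest at 750. Such levels depend on the transcript taken for the length. Ndufb4 also shares 390 bases at 100.0% identity with the pseudogene Ndufb4c, which was not listed, and its part in this level was not tested.

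The chain also holds subunits encoded by mitochondrial DNA, which form much of its catalytic and proton-pumping core. The list of 13 genes encoded there also includes mt-Atp6 and mt-Atp8, which belong to ATP synthase. Of these 13 genes, mt-Nd6 was lower (log2 fold change -0.48, SE 0.11, adjusted p = 0.011, limma) and none was higher. At an unadjusted p under 0.05, 1 gene was higher and 1 lower. The median log2 fold change was 0.03 ± 0.14 (SD of the line medians, n = 4 lines). These subunits made up 3.86% to 8.35% of a library, and with trametinib their share was higher in each line, at 4.14%, 8.35%, 4.86% and 5.25% against 3.86%, 6.0%, 4.11% and 4.82% with DMSO. The totals behind these shares were lower with trametinib, at 33063309, 30680091, 32788428 and 31677694 against 35613325, 33385299, 36385719 and 34690006. The median log2 changes of the 13 genes were 0.04, 0.29, 0.02 and -0.02 by line, so that a higher share was not a higher level in each line. The core complex IV gene mt-Co1 stood at 411791, 674708, 465984 and 542482 with DMSO and at 424011, 928127, 531209 and 551977 with trametinib. The estimate for mt-Co1 was 0.18 (SE 0.20, adjusted p = 0.47), with values above 0 in 4 of 4 lines. With the length and GC correction mt-Nd4, mt-Nd4l and mt-Atp8 were called higher and the median was 0.32. The call of mt-Nd6 was lost with that correction (-0.21, adjusted p = 0.20, limma) and without the block for the line (adjusted p = 0.21), so that none of the 13 was lower there, and with equal totals mt-Nd4, mt-Nd4l and mt-Nd5 were higher and mt-Nd6 lower. The libraries were made from polyA RNA, and mt-Nd6 lies on the other strand of mitochondrial DNA than the remaining 12.

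Other nuclear genes of the chain and of its assembly were counted from lists by function. In complex II, which feeds electrons from succinate, Sdha, Sdhb and Sdhd were lower, by 0.39, 0.49 and 0.45, and Sdhc was at -0.05 (adjusted p = 0.73). Of 15 nuclear ATP synthase genes 13 were lower, with a median log2 fold change of -0.43 ± 0.20 (SD of the line medians, n = 4 lines). Of 78 mitochondrial ribosomal protein genes 64 were lower, with a median of -0.62 ± 0.22. Among the assembly factors, 7 of 16 for complex I were lower and 1 was higher, 2 of 6 for complex III were lower, and 7 of 23 for complex IV were lower and 2 higher. The lower shares of 43.8%, 33.3% and 30.4% compare with 25.6% of all genes tested, which for complexes III and IV is close. With the length and GC correction 7 ATP synthase genes and 57 mitochondrial ribosomal protein genes were lower, and 3 of complex II. Coa1 and Pet117 were not analysed here. In line #3 the median stood at -0.66 for complex I assembly factors and at -0.93 for mitochondrial ribosomal proteins, while that of the mitochondrially encoded subunits was 0.29.

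**Figure D3:**
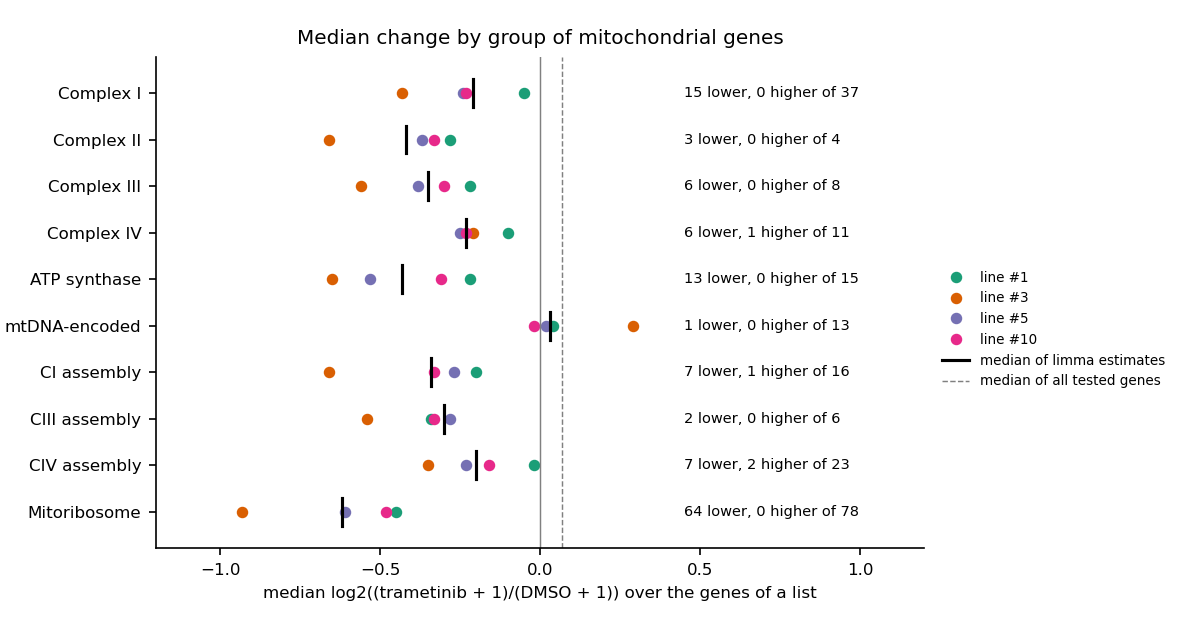
Median log2 change of the tested genes of each group (horizontal axis), with 1 point per cell line, a black bar for the median of the limma estimates, a solid line at 0 and a dashed line at the median of all genes tested. All nuclear groups lie left of 0, from -0.20 for complex IV assembly factors to -0.62 for mitochondrial ribosomal proteins, and the subunits encoded by mitochondrial DNA lie at 0.03.

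Among 14 tested regulators of nuclear respiratory genes, 7 were lower and 1 was higher. Ppargc1a, the coactivator PGC-1alpha that is known to raise mitochondrial gene expression, stood at 112, 61.0, 103 and 73.9 with DMSO and at 346, 512, 349 and 406 with trametinib. The groups lay far apart, and the log2 fold change was 2.21 (SE 0.26, adjusted p = 0.00095, limma). Its relative Pprc1, which is linked to growth, moved the other way, from 8806, 8558, 8724 and 8830 to 4290, 3374, 4913 and 4855 (log2 fold change -1.02, SE 0.11, adjusted p = 0.00067). Tfam, the factor that packages and transcribes mitochondrial DNA, fell by 1.04, Nrf1 by 0.62, Gabpa by 0.70, Yy1 by 0.44, Myc by 1.01 and Hif1a by 0.70. Gabpb1 was at -0.06 (adjusted p = 0.56) and Esrra at 0.14 (adjusted p = 0.28), and Esrrb and Esrrg were below the filter.

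Promoters of 300 bases, from 250 before to 50 after the start, were taken from RefSeq on GRCm38.p6 and matched 49 of the 61 members, with 51 promoters. Ndufa2, Ndufb9, Ndufs1, Uqcrb, Uqcrc2, Uqcrq, Cox4i1, Cox4i2, Cox6a2, Cox6c and Cox8c were among those with no entry. Motifs were searched on both strands. The letters GCGCATGC, part of the NRF1 motif, were in 6 of 51 member promoters (11.8%) and in 2.71% of all 32851 promoters. The shorter NRF1 core TGCGCA, which may overlap them, was in 14 (27.5%) against 7.76%, and the YY1 letters AAGATGGC in 7 (13.7%) against 2.75%. The GABP letters CCGGAAG were in 9 (17.6%) against 8.86%, the SP1 letters GGGCGG in 21 (41.2%) against 35.7%, and the E-box CACGTG in 3 (5.88%) against 7.15%. These counts are descriptions and a match is not a binding site.

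Promoters of 4 members are printed 5′ to 3′ to show that the same letters stood in promoters of members that fell and of one that did not pass the test. Capitals mark matches of the NRF1 and GABP letters on either strand.
Uqcrc1, chr9:108936398-108936697, plus strand: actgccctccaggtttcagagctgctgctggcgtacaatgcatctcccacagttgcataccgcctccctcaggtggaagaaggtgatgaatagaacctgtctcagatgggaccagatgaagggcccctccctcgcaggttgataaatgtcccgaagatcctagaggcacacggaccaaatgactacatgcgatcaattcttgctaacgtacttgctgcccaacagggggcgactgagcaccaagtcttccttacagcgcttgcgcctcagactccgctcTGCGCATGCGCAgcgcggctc
Uqcr11, chr10:80406772-80407071, minus strand: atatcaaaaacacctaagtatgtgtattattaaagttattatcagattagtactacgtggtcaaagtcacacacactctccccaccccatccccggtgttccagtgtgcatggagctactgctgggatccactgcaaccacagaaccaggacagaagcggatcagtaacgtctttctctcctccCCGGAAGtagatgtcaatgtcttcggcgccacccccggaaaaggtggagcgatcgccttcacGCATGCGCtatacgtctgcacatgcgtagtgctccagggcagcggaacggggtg
Ndufs8, chr19:3912725-3913024, minus strand: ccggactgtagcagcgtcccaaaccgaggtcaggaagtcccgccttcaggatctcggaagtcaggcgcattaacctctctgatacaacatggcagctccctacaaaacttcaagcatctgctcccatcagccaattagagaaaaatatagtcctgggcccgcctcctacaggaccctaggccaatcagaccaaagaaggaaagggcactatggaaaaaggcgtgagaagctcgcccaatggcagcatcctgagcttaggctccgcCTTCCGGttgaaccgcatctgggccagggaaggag
Cox6a1, chr5:115348909-115349208, minus strand: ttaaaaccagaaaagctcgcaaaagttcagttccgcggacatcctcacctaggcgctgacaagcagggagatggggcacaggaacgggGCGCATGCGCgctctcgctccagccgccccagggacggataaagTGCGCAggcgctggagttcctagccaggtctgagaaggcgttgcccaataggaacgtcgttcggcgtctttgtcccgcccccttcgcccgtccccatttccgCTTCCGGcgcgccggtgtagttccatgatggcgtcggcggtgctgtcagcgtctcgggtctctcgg
Uqcrc1 carries overlapping NRF1 matches after its start, Uqcr11 both kinds, and Ndufs8 a GABP match, and these genes had log2 fold changes of -0.47, -0.31 and -0.40. Cox6a1, with NRF1 and GABP matches before its start, had -0.04. Of the 6 genes whose promoter held the longer NRF1 letters, Uqcrc1, Uqcr11 and Ndufa8 were called lower, 3 of 6, and for the GABP letters it was 4 of 9 genes. Of the 49 members with an entry, 24 were called lower.

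Transcript length moved with these results. The tested members have short transcripts, with a median of 681.5 bases (315 to 2590) against 2560 for all genes tested, by GENCODE M21. Among all genes tested, those of up to 600 bases had a median log2 fold change of -0.23, with 28.7% lower, and those over 4000 bases had 0.14, with 22.9% lower. The 20 members of up to 600 bases had a median of -0.17, which was no lower than that of the 659 genes of this length. The 20 members of 600 to 1000 bases had -0.25 against -0.06 for 1245 genes, and the 8 members of 1000 to 1500 bases had -0.45 against -0.06 for 1722 genes.

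With each library corrected for transcript length and GC content, 12 members were lower and 4 were higher. The background was 26.0% lower and 27.1% higher among all genes tested. The lower members were 8 of complex I, 3 of complex III and 1 of complex IV, and the medians were -0.08, -0.16 and 0.01. Ndufa12 (-0.60), Ndufab1 (-0.56), Ndufa5 (-0.55), Ndufa10 (-0.55), Uqcrc1 (-0.54) and Cox7b (-0.49) were still called lower. Of the 27 members called lower before the correction 15 were not called after it, among them Uqcrb, Cox5a (-0.12) and Cox7a2 (-0.05). Ndufa1 (0.39), Ndufb3 (0.34) and Ndufc1 (0.30), which encode small membrane subunits and were named after their values were seen, were called higher there beside Cox7a1 (1.10). The correction left the 659 shortest genes at a median of 0.14, so that it moved short transcripts past 0, and the 20 shortest members lay at 0.09. For the 8 members of 1500 to 4000 bases the corrected median was -0.31, against 0.06 for 8055 genes.

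**Figure D4:**
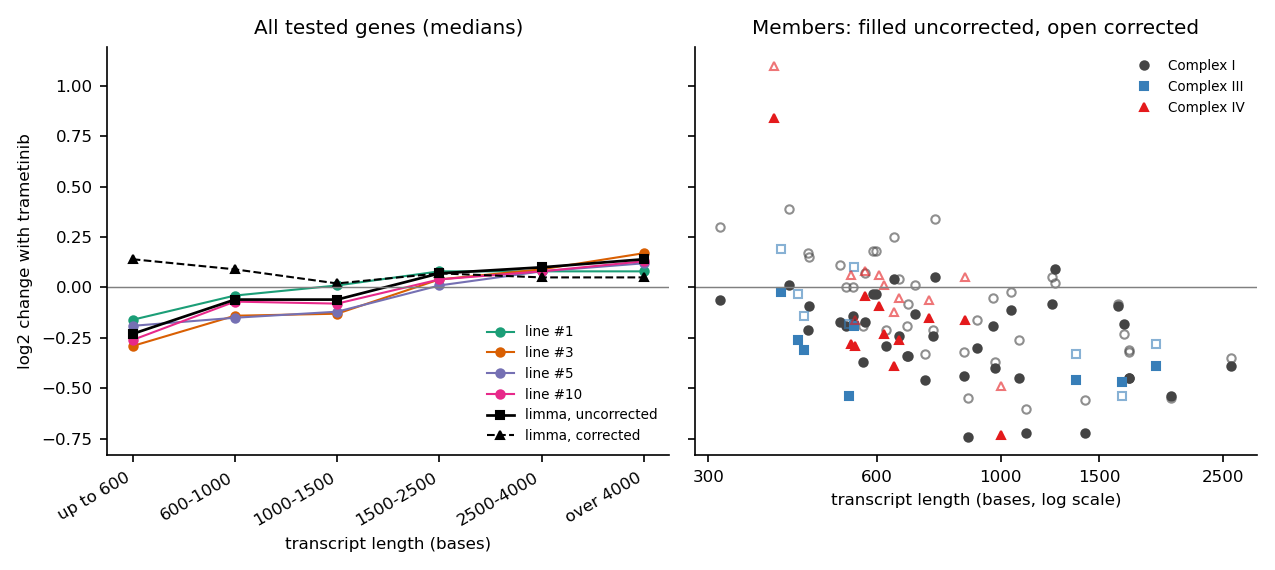
Left, median log2 change of all tested genes by transcript length (bases) in each line and in limma before and after the correction for length and GC content. Right, the limma log2 change of each tested member against its transcript length on a log axis, with filled marks before and open marks after the correction. Short genes lie at -0.23 before and 0.14 after the correction, and the members over 1000 bases lie mostly below 0 in both.

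Without the cell line as a block, 9 members were lower (6 of complex I, 2 of complex III and 1 of complex IV), with 14.8% of all genes tested lower and 13.9% higher. The libraries of a line are paired, and the block is therefore the main result. Ndufa12, low in line #3 under both treatments, had an adjusted p of 0.26 without it. With the libraries rescaled to equal totals 9 members were lower (16.1%) and 1 was higher, against 20.7% and 33.5% of all genes tested, so that the members did not exceed the background under this scaling. This scaling moved the median of all genes from 0.07 to 0.20 and the share of higher genes among all calls from 51.6% to 61.8%, and the medians of the complexes then stood at -0.09, -0.22 and -0.10. The count of lower members was 9 (16.1%) without line #5, against 20.7% of all genes tested, and 13 (23.2%) without line #10, against 20.6%, both near or below the background. The 6 genes Cox7b, Ndufab1, Ndufa5, Ndufa10, Ndufv2 and Uqcrc1 were lower in all 15 alternative settings.

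Near-identical copies limited a few single values. A copy with at least 95% identity over at least 200 bases was found for 13 members, and for 9 of them such a copy was listed. Ndufs5, an accessory subunit named after its values were seen, shares 319 bases at 99.4% identity with the pseudogene BC002163. With DMSO Ndufs5 stood at 857, 537, 556 and 273 and BC002163 at 0.0, 186, 179 and 331, so that the gene appeared lowest in line #10, where its copy was highest. Their sums were 857.1, 723.4, 734.3 and 603.3 with DMSO and 1055, 586.2, 701.0 and 615.9 with trametinib, and the estimate for the sum was -0.01 (adjusted p = 0.95, limma). Summed with their copies, the members gave the same count of 27 lower and 1 higher. Ndufa13, Ndufb5 and Uqcrc2 share exons with Tssk6, Mrpl47 and Pdzd9 on the opposite strand. Further members also overlap exons of an opposite gene, among them Ndufab1, Ndufb11, Ndufs1, Ndufs3, Ndufs6, Uqcrb and Cox5a. Ndufb2, Ndufb8 and Ndufb9 overlap exons of Gm42420, Gm20538 and Gm49356 on the same strand. The part of these overlaps in the values was not tested. The kit marks strand, and how strand was used in counting is not given in the sources used here.

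**Figure D5:**
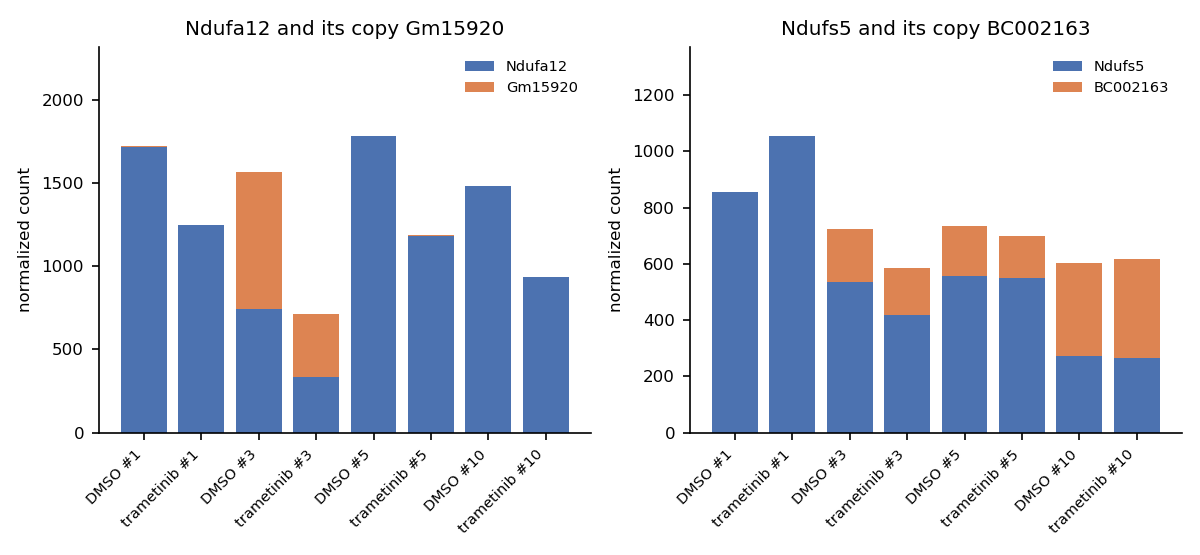
Normalized counts (vertical axis, from 0) of Ndufa12 and Ndufs5 in each of the 8 libraries, stacked with their near-identical pseudogenes Gm15920 and BC002163. In line #3 the Ndufa12 total of 1567 with DMSO splits into 744 and 823, and for Ndufs5 the share of the copy differs from line to line.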

How the data were processed

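RNA-seq was performed by the authors on 8 libraries from 4 murine PDAC lines, after 48 h with trametinib or with DMSO as control, using a stranded mRNA kit. The time is stated for trametinib only. The submitters' processing notes name CASAVA 2.17, Salmon 0.12, DESeq2 1.18 and the build mm10. The authors deposited normalized counts per gene symbol, a signal scaled between libraries that is not whole reads. On log2(value + 1), limma 3.58.1 was run in R 4.3.3 (trend, cell line as block, mean of at least 10, Benjamini-Hochberg adjusted p under 0.05), and the fit was tested on simulated data. Libraries with the same number come from the same cell line, and their deviations from the treatment means correlated across genes at 0.631 to 0.724. Length and GC content, known for 96.5% of the genes tested, and positions came from GENCODE M21 on GRCm38 by symbol. Copies were searched with BLAST 2.17.0. Tables and plots used Python 3.11.15, pandas 2.3.3, numpy 2.4.6 and matplotlib 3.10.9. Depth is known only from the step of low values, so no counting interval is given. The members and lists were chosen with earlier results of these data known. Members named with values are, per complex, the 3 largest rises and falls among those called, the core subunits, the alternate complex IV isoforms with their common partners, and Ndufa4. Values of 1 core subunit and part of the genotype are not reported here. Others were named after their values were seen. Settings tried as alternatives were pseudocounts of 0.1 and 5, 3 other scalings, no filter or a mean of 50, no block, no trend, a length and GC correction, added copies (chosen after seeing the data) and leaving out each line.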

Additional observations from a re-analysis of the deposited data

Results flagged for a closer look

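Groups of 4 libraries or of 4 changes per line were examined for a value far from the others, and 8 of 94 were found. In 4 of these 8 the other libraries are all at 0, so that any value above 0 stands apart by construction. The remaining 4 stand beside 4.7 expected by chance over 94 groups. Ndufa13 and Uqcrq, among these 4, were named after their values were seen, so that this number is only a rough guide. The change of Uqcrb in line #3 was -0.87, against -0.46 to -0.41 in the other lines. With DMSO, Cox8a stood at 6349 normalized counts in line #10, against 4773 to 4859 elsewhere, and Uqcrq at 1620 in line #1, against 2085 to 2126. With trametinib, Ndufa13 stood at 1691 in line #5, against 2557 to 2677. The exons of Ndufa13 overlap Tssk6. Those 4 at 0 were alternate isoforms listed at 0 in the other libraries of the group: Cox4i2 at 0.937 and Cox7b2 at 0.948 with trametinib in line #3, Cox6a2 at 0.951 with DMSO in line #10, and Cox8c at 2.95 with trametinib in line #1. Each of the first 3 of these values is about that of 1 read. The cause of these values was not tested.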

How the results depend on the processing

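The count of 27 lower members was 9 with equal totals, 9 with no replicate block, 12 with the length and GC correction, 15 without trend and 17 with quantile normalization, and 9 to 24 with a line left out (9 without line #5, 13 without line #10). As shares of the members, the first 5 counts are 16.1%, 16.1%, 21.4%, 26.8% and 30.4%, against 20.7%, 14.8%, 26.0%, 23.2% and 26.6% of all genes tested under the same settings, so that the lead over all genes (48.2% against 25.6%) was absent or small there. For complex I the 15 lower members became 6 with equal totals, 6 without the block and 8 with the length and GC correction, and 6 to 16 with a line left out. For complex III the 6 became 2 with equal totals, 2 without the block and 3 with quantile normalization, without trend and with the length and GC correction, and 2 to 5 with a line left out. For complex IV the 6 became 1 with equal totals, quantile normalization, no block and the length and GC correction, 2 without trend and 2 without a filter, and 1 to 4 with a line left out. Cox7a1, the 1 higher member, was not called (0 higher) with quantile normalization, median centring, no filter or no block, nor with any line left out (0 to 0), and it was below the filter at a mean of 50 and not tested there (0 higher). With the length and GC correction 4 members were higher, 3 of them in complex I. The median of complex III moved to -0.16 with that correction, and that of complex IV to 0.01 with it, -0.10 with equal totals, -0.11 with quantile normalization and -0.15 with no filter.

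A tally of alternative values covers 27 named members, and other members given with values above, such as Ndufs4 and Uqcrc2, are not in it. Among members called lower outside this tally, the call was kept in 5 of 15 settings for Uqcr10 and up to 13 of 15 for Ndufb10. Of 404 alternative values of the 27 members, 329 kept direction and call, 50 lost the call, 5 gained it and 20 changed sign. None of the 27 that changed sign was called in limma under that setting. Ndufc1, which is outside the 27, went from -0.06 to 0.30 with the length and GC correction. It was called higher there (adjusted p = 0.047, limma). With equal totals Ndufs3 was at 0.02, Cox6a1 at 0.09, Ndufs5 at 0.10 and Uqcrq at 0.11. With quantile normalization Cox4i1 was at 0.03, Cox6a1 at 0.08, Ndufa1 at -0.02 and Uqcrq at 0.05. With the length and GC correction Cox6a1 was at 0.08, Cox6b1 at 0.01, Ndufa4 at 0.17, Ndufs5 at 0.18 and Uqcrq at 0.19. With median centring Ndufa1 was at -0.04 and Ndufb3 at -0.01. With a line left out, Cox6a1 ranged from -0.08 to 0.02, Ndufs5 from -0.14 to 0.08, Ndufa1 from -0.03 to 0.09 and Uqcrq from -0.11 to 0.10. The causes were not tested. Depth limits what can be said of the alternate isoforms below the filter.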
